A study of Mus musculus with 24 samples.

Results

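The comparison set 4 RNA-seq libraries of CD8 T cells activated for 24 h in the presence of a TLR7 agonist against 4 libraries of CD8 T cells activated for 24 h in the presence of a TLR2 agonist. These 8 of the 24 libraries of the series were chosen by their group labels alone, and every gene expressed in the series entered the comparison. All 24 libraries came from OT-1 spleens. In this strain a transgene gives CD8 T cells a receptor for a peptide of ovalbumin, and the treated and the control cells shared that transgene. The spleen cells were cultured with 2 µg/mL of the ovalbumin peptide, an agonist was added to the whole culture 1 h before the peptide where a group received one, and T cells were then taken from the culture by negative magnetic selection. The 6 groups of 4 were peptide alone (OVA in the labels), peptide with a TLR2 agonist and peptide with a TLR7 agonist, each at 24 h and at 72 h. The labels name the groups by receptor only. Of the agonists listed in the protocol, Pam3CSK4 (300 ng/mL) acts on TLR2, while gardiquimod (3 µg/mL) and R848 (10 µg/mL) act on TLR7. Neither the TLR7 agonist these libraries received nor the age of the mice is stated in the labels. Nothing in the labels ties a replicate to its own mouse or culture, and the p-values therefore reflect variation among these libraries, which may be technical.

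Toll-like receptors are sensors of microbial products that signal through the adaptor Myd88. TLR2 sits at the cell surface and binds bacterial lipopeptides, whereas TLR7 sits in endosomes, binds single-stranded RNA and imidazoquinoline drugs, and in plasmacytoid dendritic cells is a strong trigger of type I interferon. Type I interferon binds its receptor on neighbouring cells, T cells included, and a complex that holds Stat2 and Irf9 then switches on antiviral genes through a DNA element of the form GAAANNGAAA. A CD8 T cell that meets its peptide leaves its resting state, grows, copies its DNA under the control of E2F factors and divides.

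Depth was 24.8, 25.0, 25.5 and 11.6 M (counts × 1000000) in the TLR2 libraries and 23.6, 10.9, 22.7 and 25.7 M in the TLR7 libraries, replicates 1 to 4 in that order here and below. The mean chi-square per gene between the counts of 2 libraries was 4.58 to 8.95 among TLR2 replicates 1, 3 and 4. Between those and TLR2 replicate 2 it was 47.26 to 90.06. TLR7 replicates 3 and 4 stood apart from their group, at 109.57 to 133.26 from replicates 1 and 2. On the first principal component of all 24 libraries, which held 60.2% of the variance and separated the times, the TLR2 libraries scored 88.5, 99.1, 85.2 and 94.2 and the TLR7 libraries 85.9, 98.7, -14.0 and -15.2. The last pair lay between the 24 h and the 72 h libraries, as did 6 libraries of other groups. Results are therefore given with all libraries and again without those 8, a fit that leaves 2 TLR7 and 4 TLR2 libraries at 24 h.

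Expression is given in CPM, counts per M, on library sizes scaled by edgeR's TMM method, and a difference as a log2 fold change, TLR7 minus TLR2, so 1 is a doubling. A value followed by an adjusted p in parentheses is a log2 fold change, and where a pair of them is given for a single gene, the first is with all libraries and the second without the 8. A gene is called risen or fallen where edgeR's quasi-likelihood test gave a Benjamini-Hochberg adjusted p under 0.05 over the 14560 genes tested. By that rule 180 genes (1.24%) were called, of which 92 (0.632%) rose and 88 (0.604%) fell with the TLR7 agonist. Among them 70 of the rises and 67 of the falls were at least 2-fold. The median log2 fold change over all genes tested was 0.02, and 51.5% of the genes were positive and 48.5% negative. The TLR7 and TLR2 libraries did not overlap in 84 of the 92 risen and 84 of the 88 fallen genes, where over all genes tested 5.5% lay wholly higher and 8.51% wholly lower. The largest rises and falls named below were chosen among genes without overlap, so its absence in them gives no further support. In bulk RNA, fewer cells of a type and less RNA per cell cannot be told apart.

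Leaving out the 8 libraries gave a set of calls of similar size and partly other genes. In that fit 204 of 15815 genes (1.29%) were called, 77 (0.487%) risen and 127 (0.803%) fallen. The fits shared 43 risen and 45 fallen genes. All 92 risen and all 88 fallen genes kept their sign. The risen genes had medians of 1.67 with all libraries and 1.24 without the 8, and the fallen genes -1.20 and -1.14. The libraries of that fit also made these calls, so the kept signs were largely fixed in advance and give no independent support. When TLR7 replicates 3 and 4 alone were left out, 114 genes (0.753%) were called, 32 risen (0.211%) and 82 fallen (0.541%), and 23 of the risen and 23 of the fallen genes remained among them. Of the called genes described below, the rises that remained were those of Stat2, Irf9, Zbp1, Oas3, Trim30a, Trim30d, Parp9, Parp14, Ifitm3, Lgals3bp, Rnf213, Gbp6, Gbp9, Slfn1, Slfn8, Ly6a, Cflar and Wdfy1, and the falls that remained were those of E2f8, Mybl2, Ccna2, Cdk1, Nuf2, Ncapg, Ttk, Esco2, Cdca5, Fbxo5, Brip1, Pbk and Cenpn. The other calls made with all libraries and described below ended without those replicates, with 2 TLR7 libraries left. Of the genes described below as called only without the 8 libraries, Aurkb, Birc5, Cdca3 and Cenpf were also called without those replicates alone. Others, among them Il2, Ccl22, Ifi204, Adar and Hmmr, were not. Of the 92 risen genes, TLR7 replicates 1 and 2 both exceeded all 4 TLR2 libraries in 84, and replicates 3 and 4 did so in 92. For the fallen genes, replicates 1 and 2 lay below all 4 TLR2 libraries in 88 and replicates 3 and 4 in 84. These genes were called on the gap between the same libraries, and the share over all genes was not computed. Nothing is therefore read from these counts. All calls ended when TLR2 replicate 1 or TLR2 replicate 4 was left out: edgeR then called 0 genes, with 2502 and 2588 at an unadjusted p under 0.05, against 3095 with all libraries. DESeq2 called 1016 genes, of which 713 rose and 303 fell, and edgeR called 431 rises and 100 falls without TLR7 replicate 1 and 503 and 126 without TLR7 replicate 2.

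**Figure D1:**
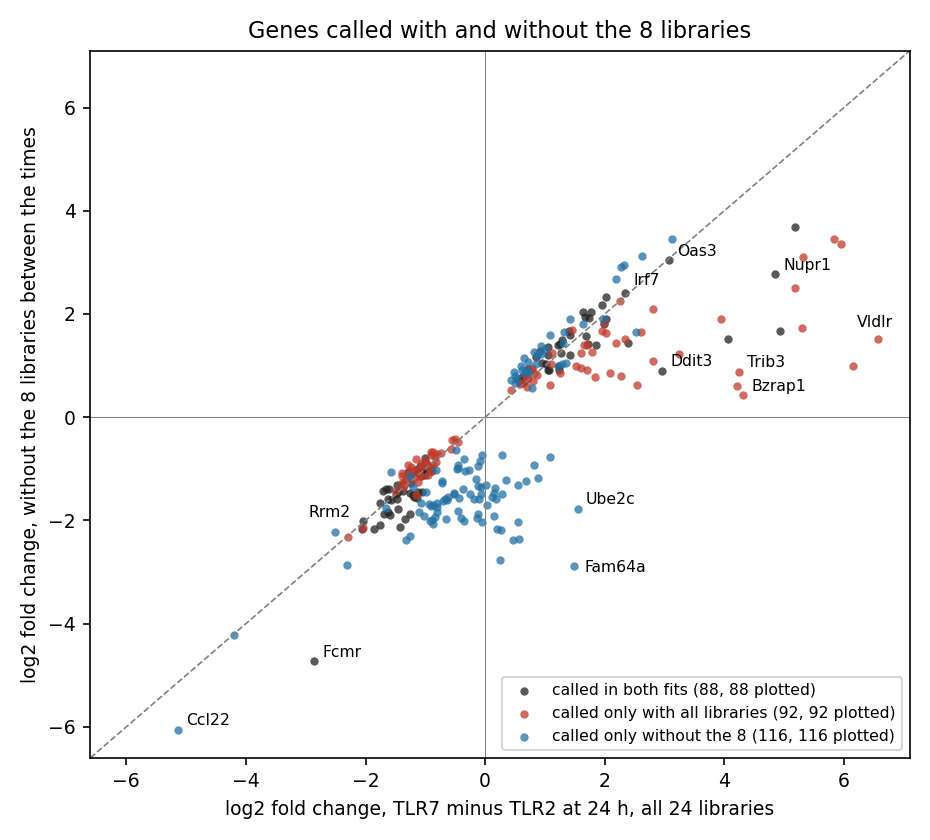
Log2 fold change of each called gene, TLR7 minus TLR2 at 24 h, with all 24 libraries (horizontal axis) and without the 8 libraries between the times (vertical axis); 1 point per gene, coloured by the fit or fits that called it. Oas3, Irf7 and Rrm2 lie near the diagonal, Vldlr, Trib3, Bzrap1 and Nupr1 lie to the right of it, and Ube2c and Fam64a lie on opposite sides of 0 in the 2 fits.

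Of the 43 risen genes that stood on any of the 45 gene lists used, 32 were interferon-response genes. Across 6 lists that cover interferon signalling, nucleic acid sensors, antiviral effectors, guanylate-binding proteins, MHC class I and the Schlafen family, 32 of 133 tested members rose and 0 fell. Of the 27 fallen genes on any list, 23 were genes of DNA replication and division. Across lists of DNA replication, nucleotide synthesis, cell cycle regulators and mitosis, 23 of 132 tested members fell and 0 rose. The lists took in 70 of the 180 called genes and were drawn up with earlier results of these data known, so they give no independent support.

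Promoter letters are shown for genes of each direction, because the interferon element and the E2F element are the sequence features by which these gene groups are usually recognised. In the 250 bases before the RefSeq start, on either strand of GRCm38.p6, GAAANNGAAA was present in 936 of 27025 genes with a promoter sequence (3.46%), in 16 of the 65 risen genes that matched the promoter table (24.6%) and in 3 of the 65 fallen genes that matched it (4.62%). An E2F element, TTTCCCGC or TTTGGCGC, was present in 407 of all genes (1.51%), in 1 risen gene (1.54%) and in 5 fallen genes (7.69%). These are descriptions of letters in a window. In the stretches below, read 5′ to 3′ on the gene's own strand, capitals mark the match, and TTTCNNTTTC is GAAANNGAAA on the other strand.
Oas3 (chr5:120777695-120777764, reverse strand): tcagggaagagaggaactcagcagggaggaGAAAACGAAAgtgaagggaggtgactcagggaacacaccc
Rsad2 (chr12:26456533-26456602, reverse strand): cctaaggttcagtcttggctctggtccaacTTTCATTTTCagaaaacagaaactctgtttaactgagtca
Stat2 (chr10:128270248-128270315, forward strand): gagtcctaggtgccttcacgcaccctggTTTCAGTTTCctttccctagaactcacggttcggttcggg
Trim30a (chr7:104465194-104465259, reverse strand): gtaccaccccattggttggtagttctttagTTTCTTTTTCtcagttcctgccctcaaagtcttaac
Slfn8 (chr11:83020819-83020888, reverse strand): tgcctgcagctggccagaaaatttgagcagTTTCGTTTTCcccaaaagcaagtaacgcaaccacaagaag
B2m (chr2:122147518-122147587, forward strand): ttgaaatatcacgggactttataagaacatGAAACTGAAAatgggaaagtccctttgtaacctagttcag
E2f7 (chr10:110745211-110745278, forward strand): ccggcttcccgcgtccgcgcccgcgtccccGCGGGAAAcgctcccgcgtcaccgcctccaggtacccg
The first 6 are risen genes with the interferon element, whose first base lay at -75, -120, -222, -36, -48 and -139 from the start site in that order. The last is a fallen gene, itself a member of the E2F family, with an E2F element at -198. None of the 7 stretches overlaps an exon of the GENCODE M21 annotation. Those of Slfn5, a risen gene with the interferon element, and of Gins3 and Bard1, fallen genes with an E2F element, overlap an exon and are not shown. The fallen gene E2f8, also not shown, has the interferon element at -231.

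Of the 16 tested signalling genes of the type I interferon pathway 3 rose with the TLR7 agonist, 0 fell and 15 were positive, with a median log2 fold change of 0.48, and without the 8 libraries 3 rose with a median of 0.47. Stat2 (ENSMUSG00000040033, chr10:128270559-128292849, forward strand), which carries the interferon signal to the nucleus, stood at 18.0, 14.3, 18.7 and 14.3 CPM in the TLR2 libraries and at 52.1, 40.8, 69.5 and 46.9 CPM in the TLR7 libraries. All 4 TLR7 libraries lay above all 4 TLR2 libraries for Stat2, with TLR7 replicate 3 the highest. Stat2 rose by 1.68 (SE 0.28, adjusted p = 0.0171) on the log2 scale, and by 1.56 (adjusted p = 0.00297) without the 8 libraries. Irf9, the DNA-binding partner of Stat2, stood at 43.2, 36.7, 42.8 and 33.2 CPM with the TLR2 agonist and at 86.0, 69.5, 76.5 and 71.0 CPM with the TLR7 agonist. Its groups did not overlap, and the 4 TLR7 values spanned a narrow range. Irf9 rose by 0.96 (SE 0.16, adjusted p = 0.0171), and by 1.05 (adjusted p = 0.00725) without the 8 libraries.

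Irf7 (ENSMUSG00000025498, chr7:141262706-141266481, reverse strand), the factor that amplifies interferon production and is itself induced by it, stood at 6.14, 2.33, 8.51 and 1.61 CPM in the TLR2 libraries and at 32.5, 15.6, 36.5 and 11.2 CPM in the TLR7 libraries. Replicates 2 and 4 were the lower pair in both groups, yet the groups did not overlap. Irf7 rose by 2.35 (SE 0.53, adjusted p = 0.0302), and by 2.40 (adjusted p = 0.0378) without the 8 libraries, but its adjusted p was 0.0533 when TLR7 replicates 3 and 4 alone were left out. Usp18, which dampens the receptor, had a log2 fold change of 1.72 (adjusted p = 0.116) and Irf1 0.41 (adjusted p = 0.151). Ifnar1, a chain of the receptor itself, stood at 38.6, 38.7, 119 and 70.5 CPM in the TLR7 libraries, with replicates 3 and 4 above 1 and 2, against 43.0 to 50.2 CPM in the TLR2 libraries.

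Among 16 tested sensors of nucleic acid, 2 rose and 0 fell, with a median of 0.47, and 4 rose with a median of 0.66 without the 8 libraries. Zbp1, a sensor of Z-form nucleic acid, stood at 37.9, 31.9, 43.1 and 22.3 CPM with the TLR2 agonist and at 157, 93.4, 116 and 66.0 CPM with the TLR7 agonist. The lowest TLR7 library was above the highest TLR2 library, and Zbp1 rose by 1.68 (SE 0.28, adjusted p = 0.0171), and by 1.95 (adjusted p = 0.00725) without the 8 libraries. Dhx58, a regulator of the RNA helicases of the RIG-I family, stood at 5.35, 2.77, 4.80 and 2.60 CPM in the TLR2 and 16.4, 6.77, 26.1 and 14.1 CPM in the TLR7 libraries. These values did not overlap either, but the call for Dhx58, 2.02 (SE 0.47, adjusted p = 0.036), ended without the 8 libraries at 1.63 (adjusted p = 0.0687). The helicases Ddx58 and Ifih1 had log2 fold changes of 1.65 (adjusted p = 0.052) and 1.18 (adjusted p = 0.0806). Eif2ak2, the kinase that halts translation on double-stranded RNA, and the RNA editor Adar passed the test only without the 8 libraries: Eif2ak2 had a log2 fold change of 1.00 (adjusted p = 0.0568) with all libraries and 1.32 (adjusted p = 0.0263) without them. Adar had a log2 fold change of 0.70 (adjusted p = 0.0606) and 0.90 (adjusted p = 0.0349) in the same order. Ifi204, a DNA sensor of the HIN family, stood at 11.4, 8.58, 3.94 and 3.12 CPM in the TLR7 libraries, where replicates 1 and 2 were the higher pair, and at 1.92, 1.23, 1.55 and 0.537 CPM in the TLR2 libraries. The groups did not overlap, and Ifi204 had a log2 fold change of 2.33 (adjusted p = 0.0904) with all libraries and 2.95 (adjusted p = 0.0153) without the 8. When TLR7 replicates 3 and 4 alone were left out Ifi204 was not called (adjusted p = 0.09).

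Of 53 tested antiviral effectors 15 rose, 0 fell and 51 were positive, with a median log2 fold change of 1.09 against 0.02 over all genes tested, and 27 of the 53 lay wholly above the TLR2 libraries. Without the 8 libraries 11 rose and the median was 1.00, and without TLR7 replicates 3 and 4 alone 8 rose. Summed over the list, the level was 1550, 1255, 1634 and 1081 CPM in the TLR2 libraries and 2922, 2255, 3486 and 2232 CPM in the TLR7 libraries, so that the lowest TLR7 sum exceeded the highest TLR2 sum.

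Oas3 (ENSMUSG00000032661, chr5:120753098-120777661, reverse strand), an enzyme that makes the second messenger for RNase L on sensing double-stranded RNA, stood at 7.27, 3.17, 8.27 and 2.06 CPM in the TLR2 libraries and at 57.1, 27.6, 65.4 and 27.5 CPM in the TLR7 libraries. Replicates 1 and 3 were the higher pair in each group, and the groups did not overlap. Oas3 rose by 3.07 (SE 0.64, adjusted p = 0.0226), and by 3.05 (adjusted p = 0.00821) without the 8 libraries. Rsad2, which encodes viperin, an enzyme that makes a chain-terminating nucleotide, stood at 0.919, 1.28, 1.67 and 0.626 CPM in the TLR2 and 5.14, 5.34, 8.35 and 3.01 CPM in the TLR7 libraries, low in both groups but without overlap. Rsad2 rose by 2.25 (SE 0.48, adjusted p = 0.0263), and had 2.24 (adjusted p = 0.0608) without the 8 libraries. Xaf1, an interferon-induced partner of the apoptosis inhibitor XIAP, stood at 9.36, 4.75, 8.59 and 3.22 CPM in the TLR2 and 30.1, 16.9, 42.8 and 16.6 CPM in the TLR7 libraries. The lower pair in each group was again replicates 2 and 4. Xaf1 rose by 2.02 (SE 0.42, adjusted p = 0.0226), and by 1.90 (adjusted p = 0.0383) without the 8 libraries.

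Trim30a, a regulator of innate signalling, stood at 64.0, 50.4, 64.8 and 23.3 CPM with the TLR2 agonist and at 206, 193, 204 and 91.1 CPM with the TLR7 agonist. Replicate 4 was the lowest of each group, and the groups did not overlap. Trim30a rose by 1.77 (SE 0.36, adjusted p = 0.0204), and by 2.04 (adjusted p = 0.0119) without the 8 libraries, and its close relative Trim30d by 1.95 (adjusted p = 0.0274) and 2.17 (adjusted p = 0.0152). Reads of such near-identical genes may be shared between them. Parp14, a mono-ADP-ribosyltransferase, stood at 57.8, 52.1, 61.2 and 39.5 CPM in the TLR2 and 134, 127, 102 and 75.2 CPM in the TLR7 libraries, with replicates 1 and 2 the higher TLR7 pair. Parp14 rose by 1.05 (SE 0.20, adjusted p = 0.0171), and by 1.37 (adjusted p = 0.00569) without the 8 libraries. Sp100, a component of nuclear bodies, rose by 1.23 (SE 0.26, adjusted p = 0.0226), and by 0.99 (adjusted p = 0.0235) without the 8 libraries.

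Further members of the list that rose were Lgals3bp at 1.41 (adjusted p = 0.0274), Cmpk2 at 1.66 (adjusted p = 0.0302), Rnf213 at 1.29 (adjusted p = 0.0272), Ifitm3 at 1.12 (adjusted p = 0.0274), Parp9 at 1.05 (adjusted p = 0.0274) and Dtx3l at 1.02 (adjusted p = 0.0495). The calls of Cmpk2 and Ifitm3 ended without the 8 libraries, at 1.40 (adjusted p = 0.104) and 1.24 (adjusted p = 0.0693), as did those of Ifi27l2a and Phf11b. Ifi27l2a stood at 86.8, 31.9, 248 and 37.1 CPM in the TLR7 libraries and 23.5, 4.14, 25.4 and 4.12 CPM in the TLR2 libraries, and its 2.81 (adjusted p = 0.0481) became 2.09 (adjusted p = 0.151) without the 8. Phf11b stood at 19.0, 14.8, 75.5 and 55.4 CPM in the TLR7 and 11.2, 9.11, 10.3 and 8.32 CPM in the TLR2 libraries, and its 2.08 (adjusted p = 0.0434) became 0.85 (adjusted p = 0.266). Several of the best known interferon-stimulated genes were higher without passing the test. Isg15, a ubiquitin-like modifier, stood at 13.0, 4.31, 12.8 and 3.22 CPM in the TLR2 and 53.3, 18.0, 32.0 and 10.5 CPM in the TLR7 libraries, with overlapping groups and 1.76 (adjusted p = 0.124). Mx1, a GTPase that blocks influenza viruses, stood at 1.92, 1.19, 2.40 and 0.626 CPM in the TLR2 and 6.77, 2.38, 7.96 and 1.98 CPM in the TLR7 libraries, again with overlap and 1.61 (adjusted p = 0.0891). Ifit1 had a log2 fold change of 1.72 (adjusted p = 0.108) and the tetherin gene Bst2 0.71 (adjusted p = 0.102), whereas Ifit2 had a log2 fold change of -0.42 (adjusted p = 0.357).

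**Figure D2:**
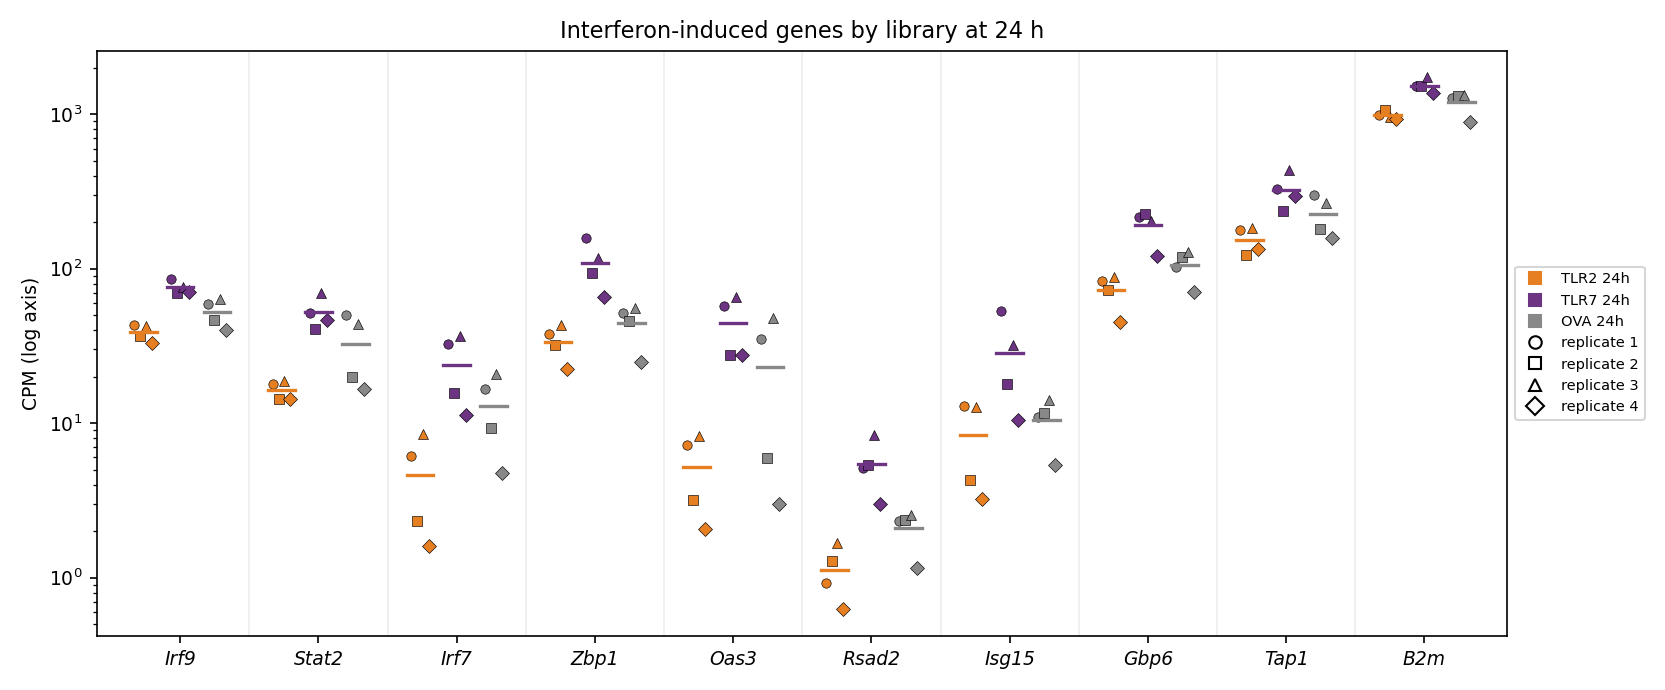
CPM (log axis) of 10 interferon-response genes in each 24 h library with the TLR2 agonist, the TLR7 agonist and peptide alone (OVA); 1 point per library, its shape the replicate, and a bar at the group mean. In each gene shown except Isg15 all 4 TLR7 libraries lie above all 4 TLR2 libraries.

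Guanylate-binding proteins and immunity-related GTPases, which coat and break open vacuoles that hold microbes, rose in 4 of 17 tested members, all 17 were positive and the median was 0.66. Without the 8 libraries 5 rose and the median was 0.85. Gbp6 stood at 83.8, 73.1, 88.6 and 45.5 CPM with the TLR2 agonist and at 217, 225, 203 and 122 CPM with the TLR7 agonist. Its groups were well separated, with replicate 4 lowest in each. Gbp6 rose by 1.40 (SE 0.27, adjusted p = 0.0171), and by 1.66 (adjusted p = 0.0135) without the 8 libraries. Gbp9 stood at 30.6, 26.2, 38.6 and 18.0 CPM in the TLR2 and 71.0, 73.0, 71.2 and 48.2 CPM in the TLR7 libraries and rose by 1.21 (SE 0.26, adjusted p = 0.0249), against 1.40 (adjusted p = 0.0163) without the 8 libraries. Gbp10 and Irgm2 rose by 1.95 (adjusted p = 0.0314) and 0.71 (adjusted p = 0.036), and both calls ended without the 8 libraries, at 1.67 (adjusted p = 0.0666) and 0.77 (adjusted p = 0.0666). Gbp4, Gbp5 and Tgtp2 were called only without the 8 libraries, at 1.07 (adjusted p = 0.0145), 1.39 (adjusted p = 0.00805) and 0.99 (adjusted p = 0.0273).

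MHC class I genes, whose products display peptides to CD8 T cells, rose in 5 of 23 tested members and fell in 0, with a median of 0.68, and in 3 with a median of 0.45 without the 8 libraries. Without TLR7 replicates 3 and 4 alone 0 of the 23 were called. Nlrc5, the transactivator of class I genes, stood at 122, 105, 119 and 97.3 CPM in the TLR2 and 209.6, 189.5, 279.7 and 239 CPM in the TLR7 libraries. The groups did not overlap, replicates 3 and 4 being the higher TLR7 pair, and Nlrc5 rose by 1.05 (SE 0.20, adjusted p = 0.0176), and by 0.91 (adjusted p = 0.0132) without the 8 libraries. Tap1, a subunit of the peptide transporter, stood at 177, 123, 182 and 134 CPM in the TLR2 and 327, 235, 434 and 295 CPM in the TLR7 libraries, without overlap. Tap1 rose by 1.07 (SE 0.21, adjusted p = 0.0177), and by 0.92 (adjusted p = 0.0204) without the 8 libraries. B2m, the common light chain, stood at 995, 1060, 958 and 931 CPM in the TLR2 and 1520, 1512, 1733 and 1372 CPM in the TLR7 libraries, a small but even step. B2m rose by 0.64 (SE 0.14, adjusted p = 0.03), and by 0.68 (adjusted p = 0.0297) without the 8 libraries. Tapbp, which loads peptide, rose by 0.81 (adjusted p = 0.0273) and the non-classical gene H2-T23 by 0.86 (adjusted p = 0.0401), but both calls ended without the 8 libraries, at 0.86 (adjusted p = 0.0599) and 0.83 (adjusted p = 0.117). The classical gene H2-K1 had a log2 fold change of 0.68 (adjusted p = 0.0997). Psme1 of the proteasome activator and the chaperone Calr, at 0.11 (adjusted p = 0.681) and -0.40 (adjusted p = 0.259), were not called.

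The Schlafen family includes regulators of T cell quiescence and of RNA. Of 8 tested members 3 rose, 0 fell and 4 were positive, with a median of 0.30, and without the 8 libraries 2 rose, 6 were positive and the median was 0.82. Slfn8 (ENSMUSG00000035208, chr11:83002158-83020810, reverse strand) stood at 23.8, 22.3, 21.2 and 12.8 CPM with the TLR2 agonist and at 79.9, 77.2, 53.9 and 37.9 CPM with the TLR7 agonist. TLR7 replicates 1 and 2 were the higher pair, and all 4 exceeded the TLR2 libraries. Slfn8 rose by 1.63 (SE 0.29, adjusted p = 0.0171), and by 2.03 (adjusted p = 0.00188) without the 8 libraries. Slfn1 stood at 13.6, 12.7, 16.9 and 9.57 CPM in the TLR2 and 51.5, 44.7, 51.1 and 28.4 CPM in the TLR7 libraries and rose by 1.73 (SE 0.33, adjusted p = 0.0171), against 1.92 (adjusted p = 0.00942) without the 8. Slfn5 rose by 1.45 (adjusted p = 0.0489), a call that ended without the 8 libraries at 1.69 (adjusted p = 0.0575), and Slfn2 had a log2 fold change of -0.25 (adjusted p = 0.75).

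Several strong rises stood on no interferon list. Ly6a (ENSMUSG00000075602, chr15:74994877-74998031, reverse strand), which encodes the surface protein Sca-1, stood at 92.7, 180.3, 114 and 111 CPM in the TLR2 libraries and at 651, 556, 448 and 354 CPM in the TLR7 libraries. TLR7 replicates 1 and 2 were the higher pair, and the groups did not overlap. Ly6a rose by 2.01 (SE 0.39, adjusted p = 0.0171), and by 2.34 (adjusted p = 0.00821) without the 8 libraries. Cflar, the gene of the caspase-8 inhibitor c-FLIP, stood at 118, 148, 95.1 and 117 CPM in the TLR2 and 252, 302, 168 and 185 CPM in the TLR7 libraries. The same pair was highest, and Cflar rose by 0.92 (SE 0.20, adjusted p = 0.0254), and by 1.27 (adjusted p = 0.00725) without the 8 libraries. Psrc1, a spindle-associated protein, stood at 5.43, 2.99, 3.30 and 5.10 CPM in the TLR2 and 10.5, 11.2, 29.0 and 36.2 CPM in the TLR7 libraries, where replicates 3 and 4 were the higher pair. Psrc1 rose by 2.38 (SE 0.51, adjusted p = 0.0263), and by 1.43 (adjusted p = 0.0187) without the 8 libraries. Plac8, Wdfy1 and Prkcq, the gene of the T cell kinase PKC-theta, are named after their values were seen. Plac8 stood at 59.4, 61.5, 62.9 and 45.1 CPM in the TLR2 and 220.1, 165, 302 and 218 CPM in the TLR7 libraries and rose by 1.98 (adjusted p = 0.0197), Wdfy1 rose by 1.25 (adjusted p = 0.0171) and Prkcq by 0.63 (adjusted p = 0.0263).

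DNA replication genes were lower with the TLR7 agonist. Of 45 tested members 10 fell, 0 rose, all 45 were negative and the median log2 fold change was -0.90, and 38 of the 45 lay wholly below the TLR2 libraries. Without the 8 libraries 7 fell and the median was -0.60, and without TLR7 replicates 3 and 4 alone 0 were called. Summed over the list, the level was 10940, 10610, 11310 and 10420 CPM in the TLR2 libraries and 7238, 6877, 5542 and 4384 CPM in the TLR7 libraries, with replicates 3 and 4 lower than 1 and 2. Cdc45, which activates the replicative helicase, stood at 157, 141, 159 and 135 CPM with the TLR2 agonist and at 59.1, 57.3, 72.5 and 39.6 CPM with the TLR7 agonist. The highest TLR7 library had less Cdc45 than the lowest TLR2 library, and the log2 fold change was -1.37 (SE 0.29, adjusted p = 0.0226) with all libraries and -1.29 (adjusted p = 0.017) without the 8. Clspn, the fork protein claspin, stood at 128, 163, 139 and 134 CPM in the TLR2 and 45.9, 57.5, 53.3 and 28.8 CPM in the TLR7 libraries. It too fell without overlap, at -1.61 (SE 0.33, adjusted p = 0.0226) and, without the 8 libraries, -1.39 (adjusted p = 0.0133).

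Brca1, which takes part in repair by recombination, fell alongside. It stood at 91.4, 114, 95.7 and 84.3 CPM in the TLR2 and 42.0, 48.6, 50.0 and 30.6 CPM in the TLR7 libraries, for a log2 fold change of -1.17 (SE 0.22, adjusted p = 0.0171). The groups did not overlap, and Brca1 was also called without the 8 libraries, at -1.03 (adjusted p = 0.0163). Lig1, which joins lagging-strand fragments, stood at 283, 242, 300.3 and 261 CPM in the TLR2 and 135, 122, 168 and 100.1 CPM in the TLR7 libraries and fell, at a log2 fold change of -1.05 (SE 0.22, adjusted p = 0.0226) and -1.02 (adjusted p = 0.0234). Other called members were Prim2 (-1.08), Rpa1 (-1.0), Gins3 (-1.18), Gmnn (-1.26) and Dscc1 (-1.40), given as log2 fold changes. The calls of Gins3, Gmnn and Dscc1 ended without the 8 libraries, at -1.03 (adjusted p = 0.0702), -1.08 (adjusted p = 0.0772) and -1.07 (adjusted p = 0.0722). Genes of the clamp and the helicase ring were lower and not called. Pcna stood at 934, 1078, 1002 and 929 CPM in the TLR2 and 570.5, 634, 423 and 372 CPM in the TLR7 libraries, without overlap, at -0.98 (adjusted p = 0.106). Mcm5 had a log2 fold change of -0.76 (adjusted p = 0.221), Mcm2 -0.53 (adjusted p = 0.41) and Uhrf1, which keeps DNA methylation through replication, -1.15 (adjusted p = 0.0791).

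Genes that supply nucleotides fell in 3 of 26 tested members, and all 26 were negative, with a median of -0.50, or 3 fallen and -0.20 without the 8 libraries. Without TLR7 replicates 3 and 4 alone 1 fell. Rrm2 (ENSMUSG00000020649, chr12:24708241-24714146, forward strand), the regulated subunit of ribonucleotide reductase, stood at 302, 376, 279.6 and 239.9 CPM in the TLR2 libraries and at 59.8, 82.6, 102 and 46.0 CPM in the TLR7 libraries. TLR7 replicate 3 was the highest of its group and still under the lowest TLR2 library. Rrm2 fell, at a log2 fold change of -2.04 (SE 0.39, adjusted p = 0.0171) and, without the 8 libraries, -2.01 (adjusted p = 0.0225), but its adjusted p was 0.0785 when TLR7 replicates 3 and 4 alone were left out. Tyms, thymidylate synthase, stood at 92.9, 107, 103 and 83.3 CPM in the TLR2 and 33.0, 37.6, 30.9 and 21.0 CPM in the TLR7 libraries and fell, at a log2 fold change of -1.66 (SE 0.40, adjusted p = 0.0434) and -1.39 (adjusted p = 0.0333). Dck, which salvages deoxycytidine, stood at 76.5, 119, 79.3 and 70.8 CPM in the TLR2 and 43.3, 61.2, 44.8 and 35.0 CPM in the TLR7 libraries, without overlap, and its call, -0.91 (SE 0.19, adjusted p = 0.0226), ended without the 8 libraries at -0.67 (adjusted p = 0.177). Rrm1 and Tk1 had log2 fold changes of -1.12 (adjusted p = 0.0704) and -0.51 (adjusted p = 0.363), and Tk1 was called without the 8 libraries, at -1.49 (adjusted p = 0.0263).

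Of 21 tested cell cycle transcription factors and G1/S cyclins 5 fell, 0 rose and 16 were negative, with a median of -0.53, or 5 fallen and -0.32 without the 8 libraries. Mybl2, the MYB factor that hands E2F control over to mitotic genes, stood at 86.6, 68.1, 92.6 and 71.9 CPM with the TLR2 agonist and at 29.5, 21.6, 34.3 and 17.6 CPM with the TLR7 agonist. Its 4 TLR7 values lay close together and under all 4 TLR2 values, and it fell, at a log2 fold change of -1.63 (SE 0.28, adjusted p = 0.0171) and, without the 8 libraries, -1.58 (adjusted p = 0.00821). E2f8, a repressor of the E2F family, stood at 28.3, 36.2, 27.0 and 23.9 CPM in the TLR2 and 5.97, 7.15, 15.6 and 5.45 CPM in the TLR7 libraries. Replicate 3 was the highest TLR7 library and the groups did not overlap. E2f8 fell, at a log2 fold change of -1.75 (SE 0.33, adjusted p = 0.0171) and -2.08 (adjusted p = 0.00929), and its relative E2f7, whose promoter stretch is shown above, at -1.38 (adjusted p = 0.0472) and -1.34 (adjusted p = 0.202). Ccne1, cyclin E1, fell, at a log2 fold change of -1.25 (adjusted p = 0.0409) and, without the 8 libraries, -1.13 (adjusted p = 0.0608).

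Some regulators of division differed within the TLR7 group. Ccna2, cyclin A2, stood at 149, 221, 154 and 116 CPM in the TLR2 libraries and at 27.4, 42.7, 118 and 49.8 CPM in the TLR7 libraries, and replicate 3 overlapped with the TLR2 group. Ccna2 fell, at a log2 fold change of -1.43 (SE 0.34, adjusted p = 0.0448) and, without the 8 libraries, -2.13 (adjusted p = 0.0135). Foxm1, the factor that drives mitotic genes, stood at 35.5, 35.3, 38.4 and 29.9 CPM in the TLR2 and 10.5, 7.44, 70.7 and 38.4 CPM in the TLR7 libraries: replicates 1 and 2 were under the TLR2 libraries and replicates 3 and 4 reached or passed their highest value. Foxm1 had a log2 fold change of -0.12 (adjusted p = 0.887) with all libraries and -1.88 (adjusted p = 0.00463) without the 8. E2f2 stood at 25.4, 29.1, 29.4 and 23.3 CPM in the TLR2 and 8.35, 8.77, 62.9 and 40.5 CPM in the TLR7 libraries in the same arrangement, with a log2 fold change of 0.18 (adjusted p = 0.838) and -1.59 (adjusted p = 0.00725).

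The mitosis list showed that arrangement in many of its genes. Of 40 tested members 5 fell, 0 rose and 26 were negative with all libraries, with a median of -0.39, whereas without the 8 libraries 23 fell, all 40 were negative and the median was -1.43. Without TLR7 replicates 3 and 4 alone 20 fell. Summed over the list, the level was 2872, 3820, 2934 and 2514 CPM in the TLR2 libraries and 1141, 1392, 4030 and 2060 CPM in the TLR7 libraries, so TLR7 replicates 1 and 2 lay under all 4 TLR2 libraries and replicate 3 above them. Cdk1 (ENSMUSG00000019942, chr10:69335146-69352938, reverse strand), the mitotic kinase, stood at 137, 152, 149 and 126 CPM in the TLR2 and 38.0, 41.1, 81.3 and 44.5 CPM in the TLR7 libraries. Replicate 3 was the highest TLR7 library, and the groups did not overlap. Cdk1 fell, at a log2 fold change of -1.46 (SE 0.27, adjusted p = 0.0171) and, without the 8 libraries, -1.78 (adjusted p = 0.0105). The other members called with all libraries were Nuf2 of the kinetochore at -1.33 (adjusted p = 0.0302), the condensin subunit Ncapg at -1.16 (adjusted p = 0.0434), and the checkpoint genes Mad2l1 at -1.10 (adjusted p = 0.0239) and Ttk at -1.06 (adjusted p = 0.0463). The calls of Ncapg and Mad2l1 ended without the 8 libraries, at -1.51 (adjusted p = 0.0598) and -1.12 (adjusted p = 0.0608).

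Mki67, the gene of the proliferation marker Ki-67, stood at 199.9, 299.6, 214 and 170.5 CPM with the TLR2 agonist and at 45.6, 64.1, 485 and 214 CPM with the TLR7 agonist. Replicates 1 and 2 were the lowest of the 8 libraries, and replicate 3 was the highest. Mki67 had a log2 fold change of -0.13 (adjusted p = 0.896) with all libraries and -1.95 (adjusted p = 0.0105) without the 8. Aurkb, a kinase that corrects spindle attachments, stood at 47.5, 46.3, 52.4 and 39.3 CPM in the TLR2 and 10.7, 10.7, 55.0 and 24.5 CPM in the TLR7 libraries, with a log2 fold change of -0.87 (adjusted p = 0.161) and -2.06 (adjusted p = 0.00694). Birc5, the survivin gene, stood at 56.8, 62.7, 61.7 and 51.1 CPM in the TLR2 and 11.1, 11.6, 48.0 and 25.9 CPM in the TLR7 libraries; it had a log2 fold change of -1.26 (adjusted p = 0.0666) and -2.29 (adjusted p = 0.00725), and all 4 TLR7 libraries were under the TLR2 libraries. Cdca3 and Hmmr changed sign. Cdca3, a trigger of mitotic entry, stood at 23.2, 21.1, 27.1 and 17.9 CPM in the TLR2 and 4.30, 5.25, 62.8 and 34.1 CPM in the TLR7 libraries, with a log2 fold change of 0.26 (adjusted p = 0.799) with all libraries and -2.18 (adjusted p = 0.00944) without the 8. Hmmr, a spindle protein, stood at 15.9, 23.5, 15.6 and 11.8 CPM in the TLR2 and 3.34, 4.67, 58.4 and 30.8 CPM in the TLR7 libraries, with a log2 fold change of 0.55 (adjusted p = 0.599) and -2.03 (adjusted p = 0.017). Cenpf had a log2 fold change of -0.05 (adjusted p = 0.965) and -2.02 (adjusted p = 0.0106).

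Other fallen genes act where replication meets mitosis. Esco2 (ENSMUSG00000022034, chr14:65819038-65833994, reverse strand), which acetylates cohesin in S phase, stood at 38.0, 63.5, 36.6 and 28.5 CPM with the TLR2 agonist and at 6.90, 11.1, 15.0 and 7.20 CPM with the TLR7 agonist. The groups were far apart, replicate 3 being the highest TLR7 library. Esco2 fell, at a log2 fold change of -2.06 (SE 0.36, adjusted p = 0.0171) and, without the 8 libraries, -2.17 (adjusted p = 0.0238). Cdca5, the cohesin protector sororin, stood at 71.0, 91.1, 88.2 and 79.5 CPM in the TLR2 and 20.3, 23.8, 41.5 and 21.5 CPM in the TLR7 libraries, and fell at -1.62 (SE 0.27, adjusted p = 0.0171) and -1.85 (adjusted p = 0.00805). Fbxo5, the inhibitor of the anaphase-promoting complex, stood at 37.0, 62.4, 42.5 and 38.8 CPM in the TLR2 and 9.66, 13.6, 24.5 and 11.9 CPM in the TLR7 libraries. It fell in the same way, at -1.60 (SE 0.28, adjusted p = 0.0171) and -1.90 (adjusted p = 0.0119). Fam111a, a protease that clears obstacles from forks, stood at 166, 213, 163 and 127 CPM in the TLR2 and 41.0, 60.4, 61.1 and 34.9 CPM in the TLR7 libraries and fell, at a log2 fold change of -1.76 (SE 0.34, adjusted p = 0.0177) and -1.66 (adjusted p = 0.0153). The largest falls among the genes named also took in the repair genes Brip1 (-1.57), Rad54l (-1.49) and Aunip (-1.71), the kinase Pbk (-1.69) and the mitochondrial carrier Slc25a10 (-1.49), as log2 fold changes. Lack of overlap was a condition for naming these genes. Smaller falls were those of the centromere genes Cenpn (-1.13) and Mis18a (-0.57) and of the spindle gene Haus4 (-0.90). The calls of Slc25a10, Mis18a and Haus4 ended without the 8 libraries, at -1.43 (adjusted p = 0.0608), -0.61 (adjusted p = 0.123) and -1.04 (adjusted p = 0.0728).

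**Figure D3:**
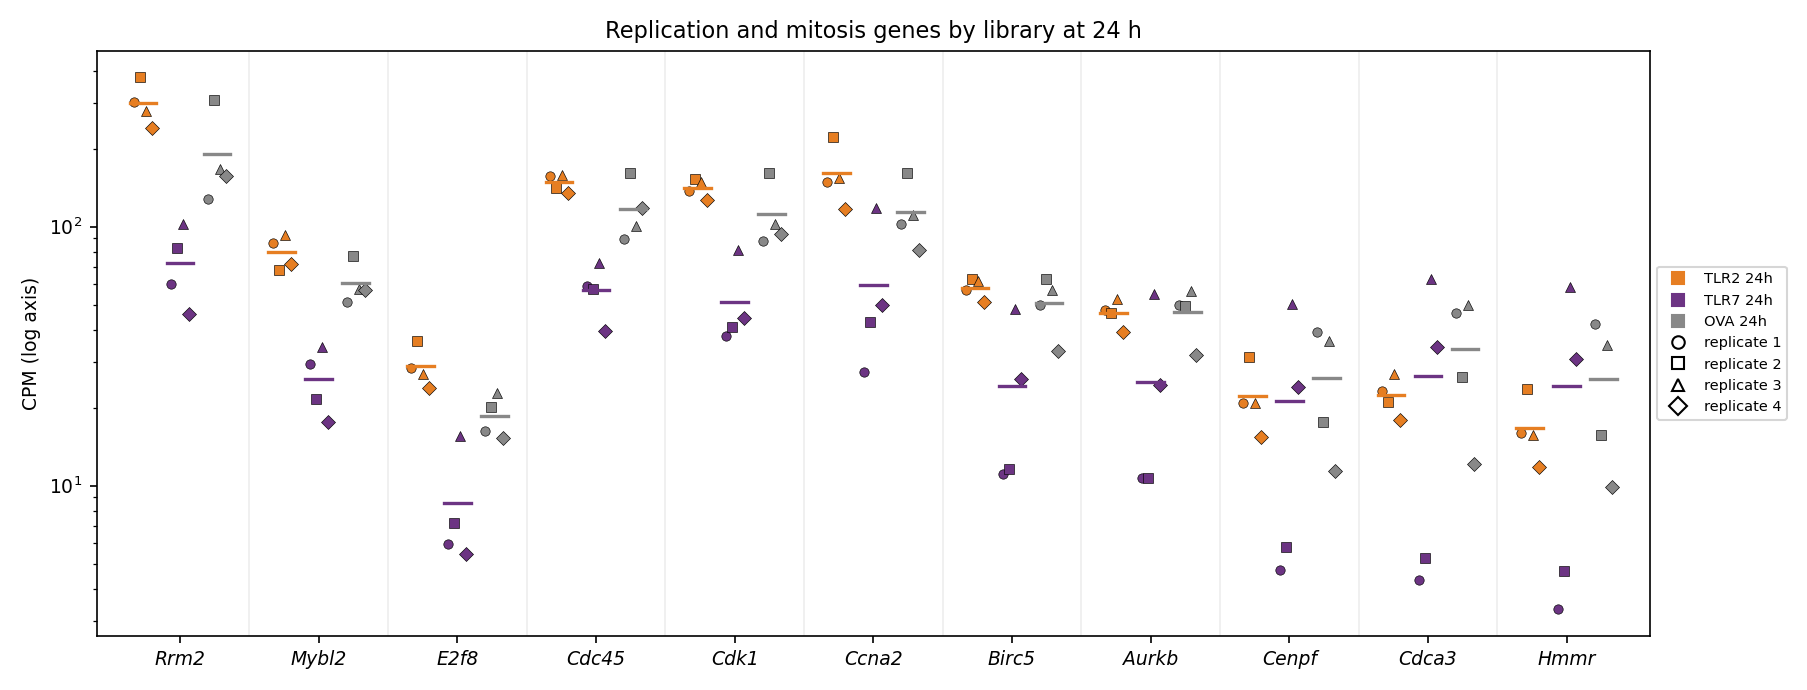
CPM (log axis) of 11 replication and mitosis genes in each 24 h library with the TLR2 agonist, the TLR7 agonist and peptide alone (OVA); 1 point per library, its shape the replicate, and a bar at the group mean. In Rrm2, Mybl2 and Cdc45 all 4 TLR7 libraries lie under the TLR2 libraries, whereas in Cenpf, Cdca3 and Hmmr TLR7 replicates 1 and 2 lie under them and replicates 3 and 4 do not.

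Among inhibitors of the cycle, Cdkn1a (ENSMUSG00000023067, chr17:29090976-29100727, forward strand) rose. This gene encodes p21, which blocks cyclin-dependent kinases. It stood at 18.8, 15.7, 14.9 and 19.2 CPM in the TLR2 libraries and at 41.2, 46.3, 51.5 and 85.6 CPM in the TLR7 libraries, and the lowest TLR7 value was over the highest TLR2 value. Cdkn1a rose by 1.71 (SE 0.36, adjusted p = 0.0249), and by 1.41 (adjusted p = 0.0144) without the 8 libraries, but its adjusted p was 0.152 when TLR7 replicates 3 and 4 alone were left out. Of the 9 tested CDK inhibitors and D cyclins it was the 1 that rose, 0 fell and the median was 0.02. In the list of 22 tested p53 targets, Zmat3 was the 1 that rose, from 30.9, 33.8, 30.4 and 35.8 CPM to 45.2, 52.7, 39.3 and 58.8 CPM, at 0.58 (adjusted p = 0.0472), and the median was 0.30. The Zmat3 call ended without the 8 libraries, at 0.64 (adjusted p = 0.101).

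Among the called genes named here, the widest fold changes belonged to those at low levels in TLR7 replicates 1 and 2 and at high levels in 3 and 4. Of 34 tested genes of the ATF4 and amino acid stress list, which cells switch on when amino acids run short or translation is blocked, 7 rose, 0 fell and 32 were positive, with a median of 0.70. Without the 8 libraries 3 rose, 24 were positive and the median was 0.30, and without TLR7 replicates 3 and 4 alone 0 were called. Summed over the list, the level was 3824, 3569, 3767 and 3909 CPM in the TLR2 libraries and 4388, 3842, 5500 and 4973 CPM in the TLR7 libraries. Ddit3, the gene of the stress factor CHOP, stood at 3.51, 3.12, 3.30 and 3.58 CPM with the TLR2 agonist and at 6.59, 5.44, 52.0 and 40.5 CPM with the TLR7 agonist. All 4 TLR7 values were over the TLR2 values, but replicates 3 and 4 were far above 1 and 2. Ddit3 rose by 2.96 (SE 0.70, adjusted p = 0.0401), and by 0.90 (adjusted p = 0.0262) without the 8 libraries.

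Trib3, a pseudokinase that restrains ATF4 signalling, stood at 2.09, 1.63, 2.08 and 1.79 CPM in the TLR2 and 3.87, 2.77, 79.2 and 57.5 CPM in the TLR7 libraries. It rose by 4.24 (SE 1.04, adjusted p = 0.0472) with all libraries and had 0.88 (adjusted p = 0.232) without the 8. Nupr1 (ENSMUSG00000030717, chr7:126623249-126630861, reverse strand), a small stress-induced chromatin protein, stood at 0.167, 0.352, 0.285 and 0.358 CPM in the TLR2 and 2.46, 1.14, 21.1 and 8.15 CPM in the TLR7 libraries. Its level was near nil in the TLR2 libraries, and it rose by 4.85 (SE 1.07, adjusted p = 0.0274), and by 2.77 (adjusted p = 0.00944) without the 8 libraries. Aldh1l2, a mitochondrial folate enzyme, stood at 0.543, 0.484, 0.529 and 0.626 CPM in the TLR2 and 1.45, 1.53, 18.7 and 14.1 CPM in the TLR7 libraries, and rose by 4.06 (adjusted p = 0.045) and 1.51 (adjusted p = 0.0435). Slc6a9, a glycine transporter, stood at 2.84, 1.01, 2.44 and 1.79 CPM in the TLR2 and 4.75, 3.53, 28.2 and 20.0 CPM in the TLR7 libraries, and had a log2 fold change of 2.80 (adjusted p = 0.0401) and 1.09 (adjusted p = 0.181). Slc3a2 and Ppp1r15a changed more evenly across the 4 TLR7 libraries. Slc3a2, the shared chain of amino acid exchangers, stood at 238, 212, 232 and 268 CPM in the TLR2 and 387, 299.8, 428 and 429.9 CPM in the TLR7 libraries, with a log2 fold change of 0.70 (adjusted p = 0.0226) and 0.59 (adjusted p = 0.0891). Ppp1r15a, which restores translation after stress, stood at 65.2, 56.1, 69.8 and 79.4 CPM in the TLR2 and 136, 88.2, 108 and 105 CPM in the TLR7 libraries, with a log2 fold change of 0.69 (adjusted p = 0.0454) and 0.78 (adjusted p = 0.0548). Atf4 itself had a log2 fold change of 0.26 (adjusted p = 0.285), Asns 1.80 (adjusted p = 0.0841) and Pck2 3.02 (adjusted p = 0.0507).

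Other genes with the widest range within the TLR7 group were Soat2, Bzrap1 and Vldlr. Soat2, a cholesterol esterifying enzyme, stood at 0.585, 0.396, 0.692 and 0.358 CPM in the TLR2 libraries and at 1.49, 1.81, 32.4 and 28.1 CPM in the TLR7 libraries. Soat2 rose by 4.92 (SE 1.14, adjusted p = 0.037), and by 1.67 (adjusted p = 0.0304) without the 8 libraries. Vldlr, a lipoprotein receptor, stood at 0.167, 0.220, 0.0814 and 0.0895 CPM in the TLR2 and 0.264, 0.668, 30.8 and 24.6 CPM in the TLR7 libraries, which is near nil in 6 of the 8 libraries. Its 6.56 (SE 1.55, adjusted p = 0.0408) became 1.51 (adjusted p = 0.466) without the 8 libraries. Bzrap1 stood at 0.334, 0.220, 0.285 and 0.537 CPM in the TLR2 and 0.439, 0.382, 12.8 and 12.1 CPM in the TLR7 libraries, with a log2 fold change of 4.31 (adjusted p = 0.0487) and 0.42 (adjusted p = 0.878). At 72 h these genes were present in both agonist groups: Vldlr stood at 24.0, 55.4, 24.0 and 24.2 CPM with the TLR2 agonist and at 36.8, 32.8, 44.4 and 30.9 CPM with the TLR7 agonist. Nupr1 stood at 12.5, 20.2, 6.63 and 11.7 CPM in the TLR2 and 15.1, 14.1, 22.6 and 25.3 CPM in the TLR7 libraries at that time. The levels in TLR7 replicates 3 and 4 at 24 h thus lay in or near the 72 h range for Vldlr and Nupr1, and those in replicates 1 and 2 below it. The low end of that range came from TLR2 replicates 1, 3 and 4 at 72 h, which also lay between the times. The other 72 h agonist libraries had Vldlr at 30.9 to 55.4 CPM and Nupr1 at 14.1 to 25.3 CPM. TLR7 replicate 4 at 24 h was under each of these ranges, and replicate 3 just under the first only. The platelet marker list moved with the same pair of libraries, at 7.69, 7.73, 62.1 and 32.0 CPM in the TLR7 libraries, mostly through Itgb3, while Pf4 and Ppbp, which define platelets, were at 0.264 to 0.865 and at 0 to 0.0865 CPM there. The part of that list in these values was not tested.

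**Figure D4:**
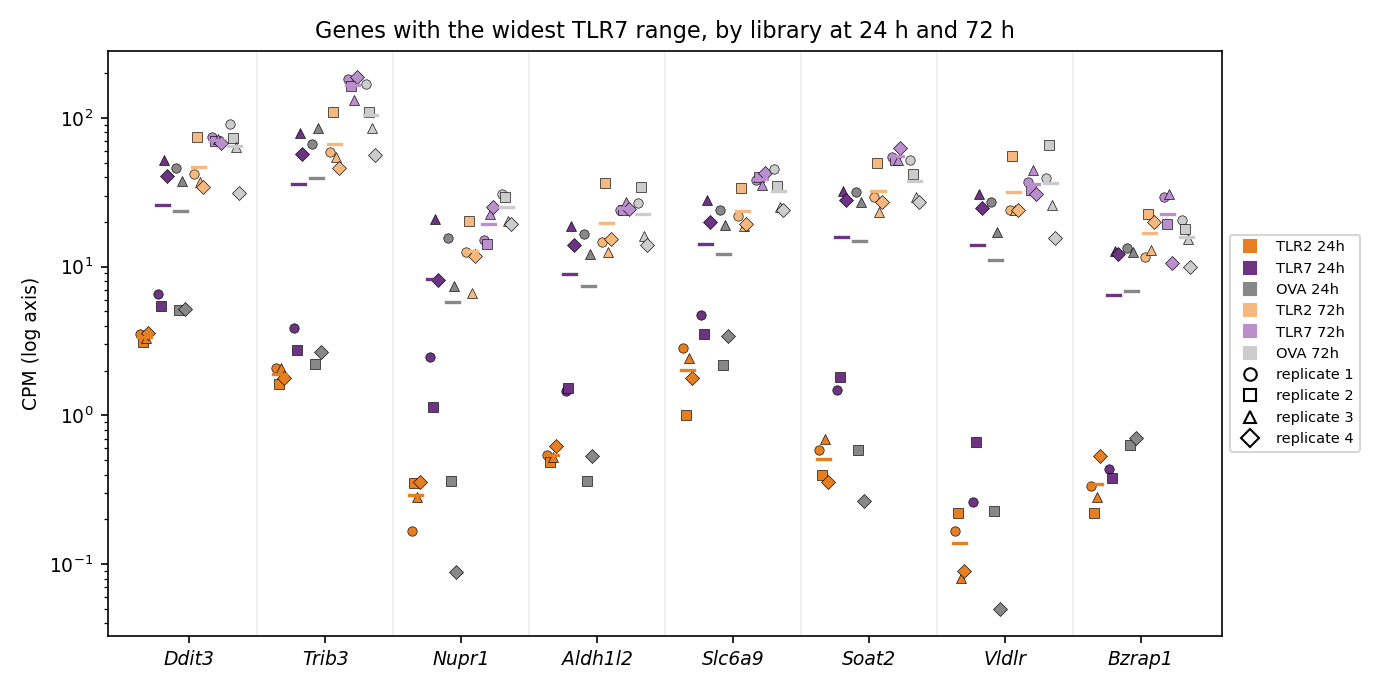
CPM (log axis) of 8 genes that vary widely within the TLR7 libraries at 24 h, in all 24 libraries by group; 1 point per library, its shape the replicate, a bar at the group mean, and the 1 value of 0 (Vldlr, peptide alone at 24 h, replicate 4) is drawn at 0.05 CPM. TLR7 replicates 3 and 4 lie well above TLR7 replicates 1 and 2 in Trib3, Vldlr and Ddit3.

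Metabolic and translation lists showed few calls. Of 20 tested hypoxia genes 1 rose, Pfkfb4, which raises a glycolytic activator: it stood at 1.80, 2.02, 2.08 and 1.97 CPM in the TLR2 and 3.87, 2.96, 5.23 and 6.55 CPM in the TLR7 libraries, with a log2 fold change of 1.25 (adjusted p = 0.0456) and 0.86 (adjusted p = 0.0985). The hypoxia median was 0.86 with all libraries and -0.01 without the 8. Of 19 tested genes of endoplasmic reticulum folding 1 fell, Sdf2l1, from 46.4, 42.7, 46.0 and 49.8 CPM to 24.2, 23.8, 20.2 and 21.1 CPM, with a log2 fold change of -1.05 (adjusted p = 0.0487) and -0.89 (adjusted p = 0.0908), and the list's median was -0.19. In the fit without the 8 libraries 1 gene of that list rose and 0 fell. The other lists of this kind had 0 calls with all libraries: the medians were 0.32 for 19 genes of glycolysis, -0.27 for 23 genes of cholesterol synthesis, -0.16 for 30 Myc and ribosome biogenesis genes and -0.04 for 20 aminoacyl-tRNA synthetases. When the 8 libraries were left out, also with 0 calls, the glycolysis median turned to -0.13, with 15 of 19 genes negative, and that of Myc and ribosome biogenesis to 0.20, with 26 of 30 positive. The cholesterol synthesis median was then -0.31 and that of the synthetases 0.01.

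T cell effector genes were not called with all libraries. Of 15 tested cytokine genes 0 rose and 0 fell, with a median of -0.04, and without the 8 libraries 1 of 18 rose and the median was 0.43. Il2, the T cell growth factor, stood at 96.3, 77.1, 46.5 and 86.9 CPM with the TLR2 agonist and at 219, 224, 98.2 and 106 CPM with the TLR7 agonist. TLR7 replicates 1 and 2 were the higher pair, and Il2 had a log2 fold change of 1.08 (adjusted p = 0.598) with all libraries and 1.59 (adjusted p = 0.00725) without the 8. When TLR7 replicates 3 and 4 alone were left out Il2 was not called, at 1.58 (adjusted p = 0.859). Il21, which helps B cells and sustains CD8 T cells, stood at 14.5, 84.4, 25.9 and 39.0 CPM in the TLR2 and 192, 193, 86.6 and 55.9 CPM in the TLR7 libraries, with a log2 fold change of 1.69 (adjusted p = 0.321). The values of Il21 overlapped and varied widely in both groups. Ifng stood at 298, 626, 287 and 394 CPM in the TLR2 and 603, 439, 203 and 214 CPM in the TLR7 libraries, with a log2 fold change of -0.14 (adjusted p = 0.903), and Tnf at 26.5, 22.4, 15.2 and 24.1 CPM in the TLR2 and 45.3, 37.3, 23.8 and 28.1 CPM in the TLR7 libraries, with a log2 fold change of 0.61 (adjusted p = 0.212). Gzmb, the granzyme of killer granules, stood at 1142, 2452, 1373 and 1723 CPM in the TLR2 and 3630, 3171, 2293 and 2407 CPM in the TLR7 libraries, with a log2 fold change of 0.78 (adjusted p = 0.285), and Prf1 had a log2 fold change of -0.20 (adjusted p = 0.708).

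Transcription factors and receptors of the effector programme were not called with all libraries, which does not show that they were equal. Tbx21, the gene of T-bet, stood at 76.1, 74.1, 67.2 and 74.7 CPM in the TLR2 and 159.5, 124, 79.6 and 73.4 CPM in the TLR7 libraries, with a log2 fold change of 0.58 (adjusted p = 0.265), and Tcf7, kept by memory cells, at 189.7, 186, 173 and 195 CPM in the TLR2 and 144, 154, 186 and 160.1 CPM in the TLR7 libraries, with a log2 fold change of -0.21 (adjusted p = 0.797). Eomes had a log2 fold change of -0.25 (adjusted p = 0.676). Pdcd1, the gene of the inhibitory receptor PD-1, stood at 93.1, 36.8, 80.2 and 56.1 CPM in the TLR2 libraries and at 32.9, 28.3, 144 and 54.1 CPM in the TLR7 libraries, the highest of the 8 being TLR7 replicate 3. Pdcd1 had a log2 fold change of -0.03 (adjusted p = 0.972), and -1.06 (adjusted p = 0.265) without the 8 libraries, and the 16 tested inhibitory receptors had a median of 0.07 with 0 calls. Costimulatory receptors (17 tested, median 0.52), cytotoxic effectors (12, 0.35), effector transcription factors (24, 0.46), naive and memory genes (19, 0.28) and cytokine receptors (30, 0.41) likewise had 0 calls with all libraries. With the 8 libraries left out the costimulatory median turned to -0.10, with 10 of 17 negative, and that of naive and memory genes was 0.01, while 2 effector transcription factors rose and the other lists named here had 0 calls.

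In T cell receptor signalling 1 of 22 tested early genes rose. Egr1, an early factor of T cell receptor signalling, stood at 32.8, 39.7, 29.4 and 28.6 CPM in the TLR2 and 54.2, 49.5, 53.1 and 54.2 CPM in the TLR7 libraries, without overlap. It rose by 0.69 (SE 0.16, adjusted p = 0.0401), and had 0.72 (adjusted p = 0.106) without the 8 libraries. Cd8a stood at 794, 721, 794 and 796 CPM with the TLR2 agonist and at 457, 508, 649.6 and 593 CPM with the TLR7 agonist, lower in all 4 TLR7 libraries. Cd8a had a log2 fold change of -0.49 (adjusted p = 0.0784) with all libraries and -0.63 (adjusted p = 0.0436) without the 8. Cd8b1 stood at 289, 217, 295 and 268 CPM in the TLR2 and 155, 154, 376 and 349 CPM in the TLR7 libraries, where replicates 3 and 4 were above the TLR2 libraries and 1 and 2 below, with a log2 fold change of -0.05 (adjusted p = 0.923) and -0.73 (adjusted p = 0.0375). Fasl, the death ligand, stood at 13.7, 9.51, 15.8 and 10.3 CPM in the TLR2 and 2.50, 3.91, 30.8 and 17.1 CPM in the TLR7 libraries in that same arrangement, with a log2 fold change of 0.15 (adjusted p = 0.872) and -1.92 (adjusted p = 0.0144). The receptors of the agonists themselves were not called. Tlr2 stood at 2.30, 2.64, 1.59 and 2.15 CPM in the TLR2 and 1.41, 1.91, 2.38 and 2.13 CPM in the TLR7 libraries, with a log2 fold change of -0.15 (adjusted p = 0.846). Tlr7 stood at 12.1, 13.1, 13.6 and 6.71 CPM in the TLR2 and 24.4, 21.8, 13.2 and 6.52 CPM in the TLR7 libraries, with a log2 fold change of 0.53 (adjusted p = 0.544), and Myd88 had a log2 fold change of 0.04 (adjusted p = 0.909).

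Markers of the labelled cell type were present in all 8 libraries. The summed CPM of the CD8 T cell markers averaged 5255 ± 613 (SD, n = 4) with the TLR2 agonist and 5244 ± 876 (SD, n = 4) with the TLR7 agonist (exact permutation test, 2-sided, p = 1). The TLR7 sums differed within the group, at 4795, 4247, 6142 and 5793 CPM against 5607, 4343, 5619 and 5452 CPM in the TLR2 libraries. Of the 16 genes 13 were negative without the 8 libraries, and 2 fell, Cd8a and Cd8b1. Markers of other spleen cells were also detected, and some of their sums differed between the groups, none at an adjusted exact p under 0.05. The 20 B cell markers summed to 820, 743, 852 and 747 CPM in the TLR2 libraries and to 551, 468, 670 and 478 CPM in the TLR7 libraries. Every TLR7 sum was lower, and the exact permutation test gave p = 0.0286, the smallest that 70 arrangements of 4 and 4 allow, or 0.0743 adjusted over 13 marker lists, which misses 0.05. By library size alone the exact p was 0.0571. The log2 ratio of the sums was -0.546, and -1.002 (exact p = 0.0286) without Ighm and Ighd, the genes of the IgM and IgD heavy chains. MHC class II genes summed to 233, 156, 360 and 195 CPM and to 102, 65.1, 114 and 116 CPM in the same order, with the same exact p = 0.0286 (adjusted 0.0743). The NK cell list went the other way, at 249, 217, 264 and 230 CPM against 369, 324, 346 and 396 CPM, with the same exact p, but most of that sum was Nkg7, which CD8 T cells also express, and the defining marker Ncr1 stayed at 0.447 to 1.80 CPM. The lists of platelet and of stromal and endothelial markers were higher in all 4 TLR7 libraries, also at the smallest exact p, and the other 8 lists gave exact p from 0.0857 to 1. The part of these cells in the rises and falls described above was not tested.

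Single B cell genes were lower with the TLR7 agonist in 19 of 20 tested members, of which 2 fell and 0 rose, with a median of -1.67 and of -1.12 without the 8 libraries. Fcmr, the receptor for IgM, stood at 5.05, 1.01, 9.37 and 2.15 CPM in the TLR2 and 0.0879, 0.286, 0.908 and 1.03 CPM in the TLR7 libraries, with a log2 fold change of -2.86 (adjusted p = 0.0481) and -4.72 (adjusted p = 0.0355). Ebf1, a B lineage factor, stood at 5.39, 9.29, 4.72 and 6.0 CPM in the TLR2 and 2.24, 4.29, 1.43 and 2.59 CPM in the TLR7 libraries, with a log2 fold change of -1.29 (adjusted p = 0.0491) and -0.92 (adjusted p = 0.347). Ms4a1, the gene of CD20, stood at 19.1, 28.6, 26.9 and 19.1 CPM in the TLR2 and 3.82, 4.29, 1.51 and 2.21 CPM in the TLR7 libraries, without overlap. Cxcr5, a follicular homing receptor that B cells carry, stood at 8.90, 14.1, 10.9 and 10.4 CPM in the TLR2 and 4.39, 5.34, 2.42 and 4.92 CPM in the TLR7 libraries, with a log2 fold change of -1.38 (adjusted p = 0.0415) and -1.13 (adjusted p = 0.17). Ccl22, a chemokine of dendritic cells, stood at 12.8, 11.0, 11.1 and 7.34 CPM with the TLR2 agonist and at 0.176, 0.0954, 0.0865 and 0.724 CPM with the TLR7 agonist, the widest gap among these genes. Ccl22 had a log2 fold change of -5.14 (SE 1.30, adjusted p = 0.057) with all libraries and -6.05 (adjusted p = 0.00945) without the 8. When TLR7 replicates 3 and 4 alone were left out Ccl22 was not called, at -6.07 (adjusted p = 0.223). The summed dendritic cell markers averaged 491 CPM with the TLR7 agonist and 509 CPM with the TLR2 agonist (exact permutation p = 0.657). Of 13 tested dendritic cell markers 8 were negative and 5 positive, with a median of -0.31, or -0.06 without the 8 libraries.

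The peptide-alone libraries at 24 h give the level without an agonist. The mean of the 4 peptide-alone libraries lay between the 2 agonist means in 81 of the 92 risen and 86 of the 88 fallen genes, and in 40.7% of all genes tested. The called genes were chosen for the gap between those means, so nothing is read from the higher count. Stat2 stood at 50.2, 20.0, 43.9 and 16.5 CPM with peptide alone, Oas3 at 35.2, 5.95, 47.9 and 3.00 CPM and Rrm2 at 128, 309, 166 and 156 CPM. In Stat2 and Oas3 the peptide-alone replicates 1 and 3, both between the times on the first principal component, were near the TLR7 libraries and replicates 2 and 4 near the TLR2 libraries. The same peptide-alone libraries would enter a comparison of either agonist with peptide, so no such comparisons are set against each other here.

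**Figure D5:**
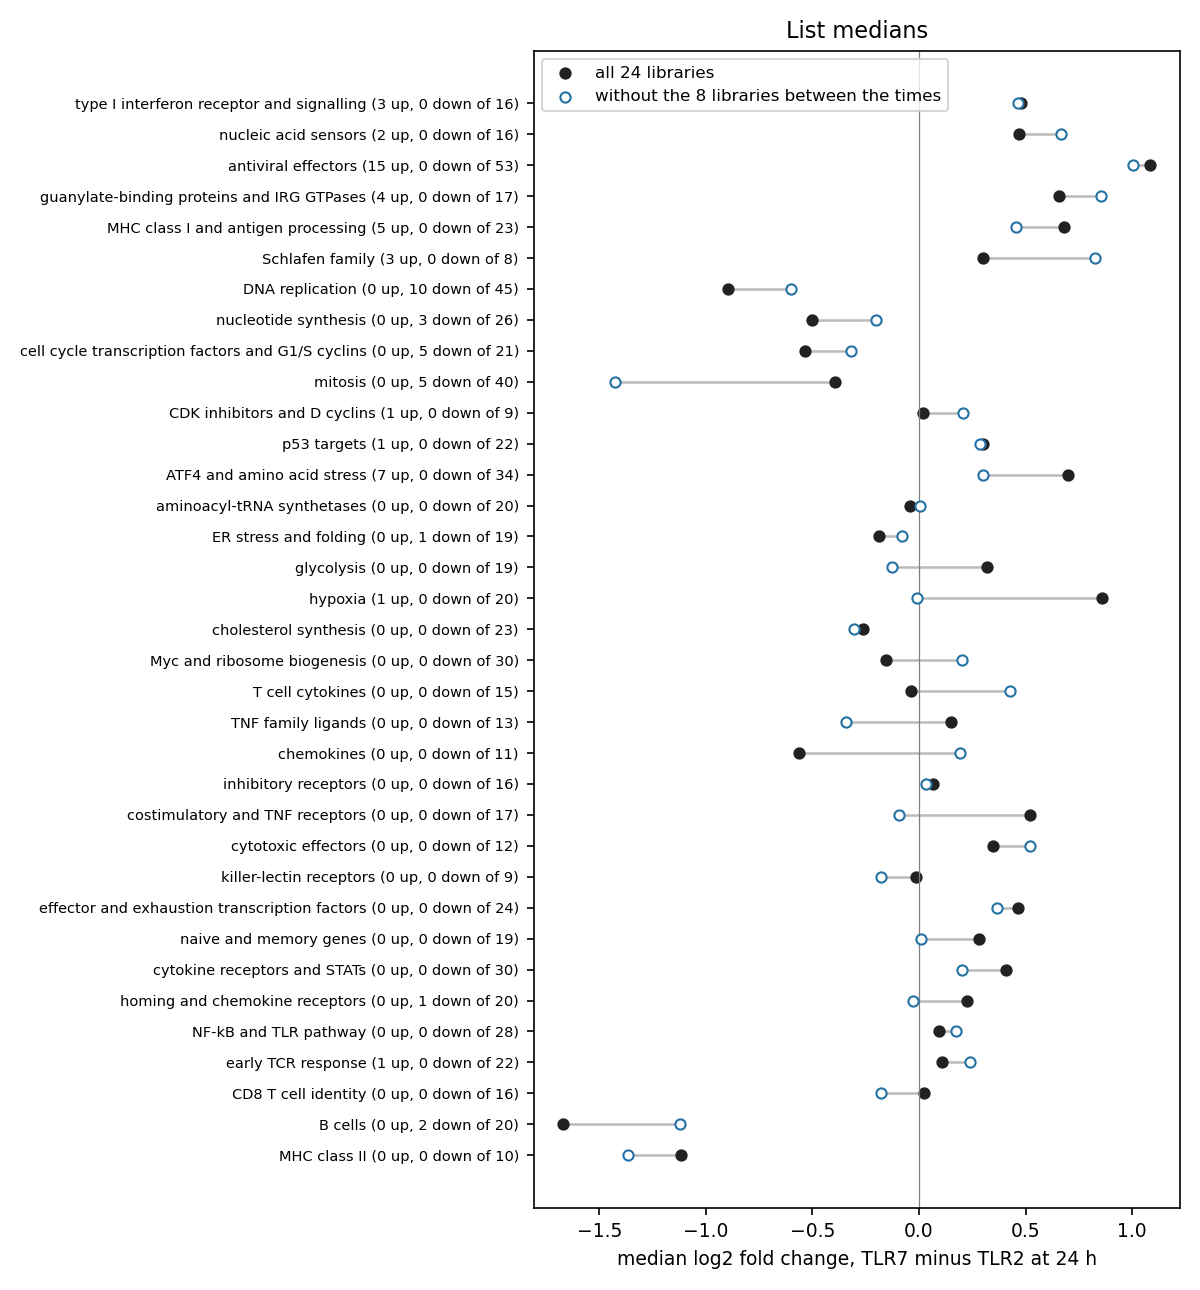
Median log2 fold change, TLR7 minus TLR2 at 24 h, of each gene list (vertical axis, with its called and tested genes) with all libraries (filled) and without the 8 libraries between the times (open), joined by a line. Interferon lists lie above 0 in both fits, DNA replication below 0 in both, and mitosis moves from -0.39 to -1.43.

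At 72 h TLR2 replicates 1, 3 and 4 stood apart, at -13.1, -8.8 and -11.4 on the first principal component, against -87.8 in TLR2 replicate 2 and -90.5 to -76.4 in the TLR7 libraries. With all libraries 699 genes (4.8%) were called, 125 higher (0.859%) and 574 lower (3.94%) with the TLR7 agonist. Leaving out the 8 libraries keeps a single TLR2 library at 72 h, which is then assumed to vary like the other groups, and edgeR called 0 of 15815 genes (0%), with 1317 at an unadjusted p under 0.05. Of the 92 genes that rose at 24 h 66 had the same sign at 72 h and 0 were called in that direction by edgeR, and of the 88 that fell 33 had the same sign and 0 were called in that direction. The share of each sign over all genes at 72 h was not computed, so nothing is read from these sign counts. The antiviral effectors had a median of 0.19 at 72 h, DNA replication -0.12 and mitosis 0.51, with 38 of 40 mitosis genes positive. The median over all genes tested was then -0.035. The change of the difference between the times was tested in the same fit. For 120 genes (0.824%) the TLR7 minus TLR2 difference changed, 64 upward (0.44%) and 56 downward (0.385%), or 43 and 70 by library size alone, and these included 14 of the genes risen and 31 of those fallen at 24 h. When TLR7 replicate 1 or 2 at 24 h, or TLR2 or TLR7 replicate 4 at 72 h, was left out, edgeR called 0 such changes, with 2596, 2407, 2072 and 1967 genes at an unadjusted p under 0.05 in that order.

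Upward changes included genes of replication and division, chosen in part for their falls at 24 h. Rrm2 stood at 106, 60.8, 152 and 58.8 CPM with the TLR2 agonist and at 117, 146, 94.1 and 219 CPM with the TLR7 agonist at 72 h, where the groups overlapped. Its difference thus moved from -2.04 at 24 h to 0.61 at 72 h, a change of 2.66 (SE 0.54, adjusted p = 0.035). E2f8 stood at 12.5, 8.30, 15.9 and 7.60 CPM in the TLR2 and 20.8, 19.5, 13.6 and 24.4 CPM in the TLR7 libraries at 72 h, for a change of 2.58 (SE 0.46, adjusted p = 0.0221). Fbxo5 stood at 20.4, 17.5, 27.2 and 14.3 CPM in the TLR2 and 27.1, 35.5, 29.4 and 49.1 CPM in the TLR7 libraries, for a change of 2.43 (adjusted p = 0.0215). Downward changes included those of Cxcl10, Tnfsf8 and Cflar. Cxcl10, an interferon-induced chemokine, stood at 22.4, 47.0, 31.6 and 31.9 CPM in the TLR2 and 85.8, 53.8, 30.5 and 18.7 CPM in the TLR7 libraries at 24 h, with overlap, and at 9.44, 0.957, 16.1 and 19.3 CPM in the TLR2 and 0.760, 0.331, 0.583 and 0.379 CPM in the TLR7 libraries at 72 h, with all 4 TLR7 libraries under the TLR2 libraries. The change for Cxcl10 was -5.01 (SE 0.96, adjusted p = 0.0254). Tnfsf8, the CD30 ligand, stood at 86.2, 109, 71.7 and 78.9 CPM in the TLR2 and 154, 233, 119.6 and 121 CPM in the TLR7 libraries at 24 h and at 76.8, 60.3, 59.8 and 141 CPM in the TLR2 and 9.87, 15.9, 33.5 and 10.3 CPM in the TLR7 libraries at 72 h. Tnfsf8 changed by -3.13 (SE 0.56, adjusted p = 0.0221), and Cflar, at 119, 164, 124 and 190.1 CPM in the TLR2 and 87.8, 80.5, 106 and 70.4 CPM in the TLR7 libraries at 72 h, by -1.71 (SE 0.28, adjusted p = 0.0215). Slfn8, at 21.1, 19.6, 15.4 and 38.7 CPM in the TLR2 and 27.4, 20.5, 18.8 and 19.0 CPM in the TLR7 libraries at 72 h, changed by -1.78 (SE 0.40, adjusted p = 0.0394). Without the 8 libraries, with 1 TLR2 library left at 72 h, 36 genes (0.228%) passed this test, 29 upward (0.183%) and 7 downward (0.0443%).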

How the data were processed

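RNA was sequenced after a stranded poly-A preparation, per the labels' protocols. The authors deposited expected counts per gene, made with STAR and RSEM on GRCm38, per the submitters' processing notes, which also name edgeR, with versions, annotation release and strand setting not given in the sources used here. The 48526 genes of each library were rounded to whole numbers, since 28.7% of the values above 0 were not whole. edgeR 4.0.16 (R 4.3.3) was fitted to all 24 libraries, 1 term per group, with TMM scaling, a filter (filterByExpr, minimum count 10) that kept 14560 genes, quasi-likelihood F tests and Benjamini-Hochberg adjustment over all of them. Depth ran from 10.5 to 27.1 M counts (M, 1000000) over the 24 libraries. Each SE is the absolute log2 fold change divided by the square root of its F value, so it includes the spread among libraries. DESeq2 1.42.0, other scalings and filters, a replicate block and left-out libraries were alternatives. Marker sums were compared by 2-sided exact permutation tests over 8 libraries. Gene positions are from GENCODE M21 and promoter sequences from RefSeq, both GRCm38.

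The genes named were the 15 largest rises and 15 largest falls among called genes with at least 5 CPM mean in either group and no overlap, up to 5 called members of each list, the 8 called genes with the widest TLR7 range, the 10 largest rises and falls without the 8 libraries, 5 each way by the test of change, and 16 fixed genes; predicted genes, clone names such as those ending in Rik, pseudogenes and receptor segments were left out. Others are list members. The comparison, the lists and this rule were chosen with earlier results of these data known. Some genes are not reported here.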

Additional observations from a re-analysis of the deposited data

Results flagged for a closer look

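Among 206 sets of 4 values, which are the 103 genes named in each agonist group at 24 h, 11 had a library whose gap to the nearest other exceeded Dixon's critical share of the range, and chance gives about 1 set in 20. TLR7 replicate 3 was highest in Cdca5 (41.5 CPM), Cdk1 (81.3), E2f8 (15.6) and Ttk (23.5). TLR7 replicate 4 was lowest in Aunip (4.95), Gbp9 (48.2) and Trim30a (91.1) and highest in Ccl22 (0.724). In the TLR2 group, replicate 2 was highest in Mad2l1 (155.7), replicate 4 lowest in Mis18a (22.6) and replicate 3 lowest in Tnfrsf10b (16.1).

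The difference between the agonists changed between the times, by the test of that change in edgeR, for 26 of the genes named, with adjusted p from 0.0215 to 0.0394. Over all genes tested the share was 0.824%. Some of these genes were named by this same test, and others for their 24 h difference, which enters it. Nothing is therefore read from the count of 26. As 72 h less 24 h on the log2 scale, replication and cohesion genes changed by 2.66 (Rrm2), 2.49 (Esco2) and 1.98 (Cdca5). The inhibitor of the anaphase-promoting complex, Fbxo5, changed by 2.43 and the centromere gene Mis18a by 1.11. The regulators changed by 2.58 (E2f8), 2.14 (E2f7) and 1.85 (Mybl2). Genes of mitosis changed by 2.43 (Pbk), 2.16 (Birc5), 1.93 (Nuf2), 1.92 (Cenpn), 1.86 (Cdk1), 1.83 (Ncapg), 1.71 (Haus4) and 1.47 (Mad2l1). Interferon-induced genes changed by -5.14 (Ifi204), -5.01 (Cxcl10), -2.46 (Slfn5), -1.78 (Slfn8) and -1.26 (Parp14). At 72 h Ifi204 was low, at 0.531, 0.230, 0.347 and 3.77 CPM in the TLR2 libraries. In the TLR7 libraries it stood at 0.285, 0.083, 0.179 and 0.152 CPM, so its 72 h difference rested mainly on TLR2 replicate 4. Genes of death, survival and signalling changed by -3.13 (Tnfsf8), -1.71 (Cflar), -1.31 (Tnfrsf10b), -1.26 (Egr1) and -0.94 (Zmat3).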

How the results depend on the processing

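The 180 calls at 24 h became 114 without TLR7 replicates 3 and 4, 0 without the 5 libraries of under 12 M counts (M, 1000000) (edgeR, 2973 at an unadjusted p under 0.05), 405 with the 2 groups alone, 375 with them alone and without those replicates, and 1016 with DESeq2 (713 rises and 303 falls). A minimum count of 50 gave 160 rises and 89 falls. Leaving out each replicate in turn gave 0 to 629 calls: 0 without TLR2 replicate 1 or 4, 49 and 39 without TLR2 replicate 2 or 3, and 531, 629, 118 and 31 without TLR7 replicates 1 to 4. The cause was not tested. Cdca3 (0.26) became -2.18 without the 8 libraries, -2.19 without TLR7 replicates 3 and 4 and -2.20 with the 2 groups alone and without those replicates, and Hmmr (0.55) became -2.03 and -2.05 in the first and last of these.

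The 120 changes between the times became 66 with no filter on low counts, 36 without the 8 libraries, which leave 1 TLR2 library at 72 h, 0 without the 5 shallow libraries (1296 unadjusted), 492 with DESeq2 and 0 to 248 without each replicate in turn. With library size alone 43 were upward and 70 downward, against 64 and 56. The 699 calls at 72 h became 0 without the 8 libraries (1317 unadjusted), an alternative chosen after seeing the data. The B cell marker sum had a log2 ratio of -0.546, of -0.484 (exact p = 0.0571) by library size alone, of -0.634 (exact p = 0.0667) without TLR7 replicates 3 and 4, of -1.002 (exact p = 0.0286) without Ighm and Ighd, and of -0.664 to -0.481 without each replicate.

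The labels do not say whether the replicate numbers pair the libraries, and these values do not decide it. Over all genes tested, same-numbered TLR2 and TLR7 libraries deviated together with r = 0.048, 0.355, 0.268 and 0.006. In the summed antiviral effectors, replicates 2 and 4 were the lower pair in both agonist groups at 24 h. With a replicate block 125 genes were called at 24 h and 56 changed between the times.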
